A study of Homo sapiens with 12 samples.

Results

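LIN28B, its paralogue LIN28A and 6 genes that are usually studied with them (IGF2BP1, IGF2BP2, IGF2BP3, HMGA2, DIS3L2 and ARID3A) were followed in a human beta-like cell line before and after induced senescence. They were chosen by name, as the rows of the expression table whose gene symbol equals one of the 8, and all 8 were found among 35337 rows. RNA was sequenced from 12 samples of EndoC-βH3, a line of 1 origin derived from human fetal pancreas, with a genotype labelled WT. The 6 non-senescent samples were labelled controls and kept the immortalising transgenes, hTERT and SV40 large T antigen. The 6 senescent samples had received 4-hydroxytamoxifen for 3 weeks, which activates a CreER recombinase carried by the cells and excises both transgenes. Every sample therefore descends from the same immortalised line, and loss of the transgenes, exposure to the drug and arrest of growth cannot be told apart. The samples fall into 2 batches, marked A (2 per group) and B (4 per group) in their titles. Libraries were made by CEL-seq2, which sequences the 3′ end of each polyadenylated transcript, so read counts do not scale with transcript length.

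LIN28A and LIN28B are RNA-binding proteins of embryonic and fetal tissue that bind precursors of the let-7 microRNAs and block their maturation. LIN28A also recruits the terminal uridylyl transferases TUT4 and TUT7, and DIS3L2 is the 3′ to 5′ exonuclease that degrades the uridylated precursors. Mature let-7 in turn lowers the mRNAs of LIN28B, HMGA2 (an AT-hook chromatin protein) and the IGF2BP proteins, which bind and stabilise IGF2 and many other mRNAs. ARID3A is an AT-rich DNA-binding transcription factor, known from B lymphocytes and early haematopoiesis. The set is called oncofetal because several of its members are high before birth, low in most adult tissues, and high again in tumours.

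The let-7 microRNAs themselves were not measured in these libraries. Their sequences in RefSeq (GRCh38.p14) are shown because they define a site that most of the 8 genes hold. The 9 mature let-7 and miR-98 sequences, from 12 loci, all had the same seed (bases 2 to 8, in capitals), of which 3 are given 5′ to 3′.
let-7a-5p: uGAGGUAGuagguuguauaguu
let-7i-5p: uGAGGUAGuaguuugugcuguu
miR-98-5p: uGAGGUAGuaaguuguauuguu

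The reverse complement of that seed is CTACCTC, and the form CTACCTCA carries the adenine that often follows a let-7 site. Both were searched on the transcript strand of each gene's 3′ UTR in GENCODE release 44, so every 8-letter match is also a 7-letter match. Taking the longest annotated 3′ UTR per gene, 6 of the 8 genes held a 7-letter match, against 10.8% of 18353 protein-coding genes. The 8-letter form was present in 4.09% of them. LIN28B held 4 of the 7-letter matches in 4549 bases, and 0.146% of the 3′ UTRs of like length (within 25%) held at least as many. IGF2BP1 also held 4, of which 3 had 8 letters, in 6701 bases (0.479% of like length). ARID3A held 2 (2.45% of like length), and LIN28A, IGF2BP2 and IGF2BP3 held 1 each, all with 8 letters. At least as many were held by 16.2%, 13.4% and 12.5% of the 3′ UTRs of like length. The share of 10.8% is over 3′ UTRs of every length. At like length the share with any 7-letter match ran from 7.09% (DIS3L2) to 33.8% (HMGA2). DIS3L2 held none, nor did the longest 3′ UTR of HMGA2. In the Ensembl canonical transcript, an alternative chosen after seeing the data, HMGA2 held 4 in 2999 bases (0.0739% of like length) and the counts of the other 7 genes were the same. Several of the 8 genes were already known to be lowered by let-7, so their excess of matches over all genes is no independent finding. These are letter matches and not measured sites.

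An 8-letter site of each of 5 genes is given on the transcript strand, as 23 bases of GRCh38 with the matched letters in capitals. The run of letters before the match differs between these 5 sites, although some share the last letters before it. Other sites of the same genes are not printed. The sites lie in the 3′ UTR at chr6:105078812-105078834 (+) for LIN28B, chr12:65963298-65963320 (+) for HMGA2 (canonical transcript), chr17:49051061-49051083 (+) for IGF2BP1, chr7:23311795-23311817 (-) for IGF2BP3 and chr19:974511-974533 (+) for ARID3A.
LIN28B: acccggttgcaaagtCTACCTCA
HMGA2: gccaacgttcgatttCTACCTCA
IGF2BP1: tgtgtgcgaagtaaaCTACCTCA
IGF2BP3: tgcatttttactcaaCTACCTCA
ARID3A: gctgcctatctctgtCTACCTCA

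**Figure D1:**
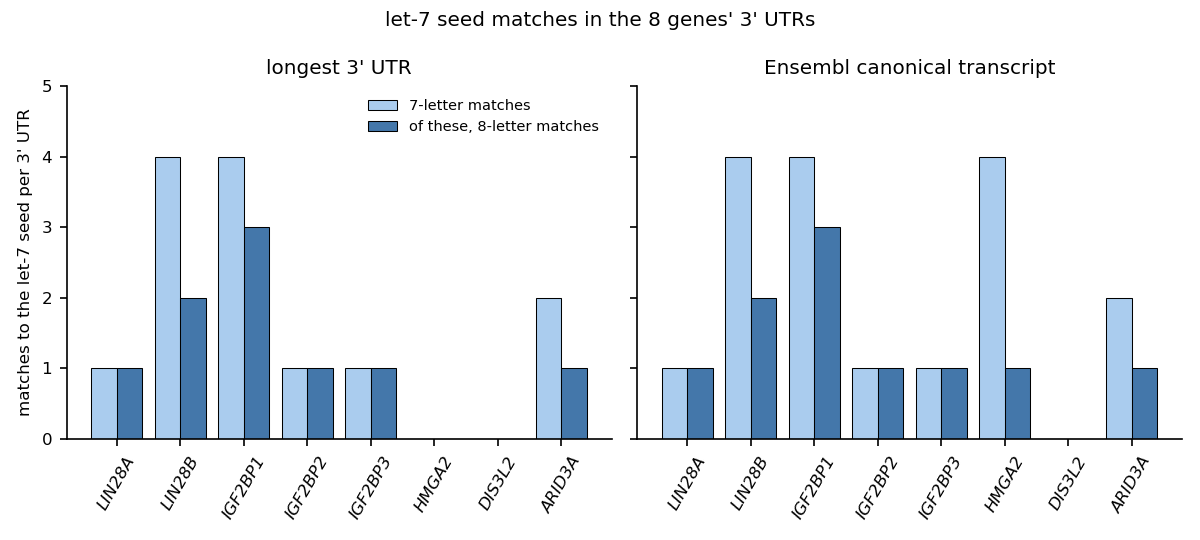
Number of let-7 seed matches (y axis) in the 3′ UTR of each of the 8 genes (x axis), with light bars for 7-letter matches and dark bars for those with 8 letters, in the longest 3′ UTR (left) and the Ensembl canonical transcript (right). LIN28B and IGF2BP1 hold 4 in both panels, HMGA2 holds 0 on the left and 4 on the right, and DIS3L2 holds 0 in both.

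The comparison asked how the level of these mRNAs differed between senescent and non-senescent cells. Values are normalised read counts, which are reads divided by 1 size factor per library. Differences were tested with limma on log2(normalised read count + 1) with batch as a term, over 13847 genes with a mean of at least 5, and calls needed both a fold change over 1.5 and an adjusted p (Benjamini-Hochberg, over all tested genes) under 0.1. Libraries held 4672924 to 17106776 reads, with 8873569 to 17106776 in batch A and 4672924 to 7063264 in batch B. A count of 3 reads corresponded to a normalised read count of 1.35 to 2.38 in batch A and 3.15 to 4.52 in batch B, which covers counting error only. Of all tested genes, 11.6% were called higher (1605 genes) and 11.8% lower (1632 genes) in the senescent cells, with a median log2 fold change of 0.01. With every library scaled to the same total, 1226 genes were called higher and 2090 lower.

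The defining beta cell markers were present, and all 10 looked up passed the filter on low values. INS (insulin) rose by 2.23 on the log2 scale, IAPP by 1.87 and PDX1 by 0.59, each with an adjusted p of 2.49e-06 or less (limma). Among markers of other islet endocrine cells SST was abundant, with means of 206128 in non-senescent and 128684 in senescent samples. GCG had means of 4166 and 2088 and HHEX of 235 and 139, while PPY and GHRL were under the filter. The summed level of 5 of these markers, most of it SST, was 164497 to 290780 in non-senescent and 115713 to 145714 in senescent samples. The beta cell markers summed to 28274 to 46632 and 71611 to 207504. SST, GCG and HHEX were tested among them and were lower. SST had a log2 fold change of -1.24 in batch A and -0.35 in batch B, and GCG had -2.36 and -0.77. Among 6 acinar markers, CPA1 alone passed the filter and was higher (summed level 33.9 to 58.4 against 144 to 251), and among 5 duct markers KRT19 alone passed and was lower (244 to 379 against 78.1 to 162). Of the 8 fibroblast and endothelial markers 3 were tested and none was called (23.9 to 133 against 18.4 to 64.1), and of 4 immune markers PTPRC was lower and CD68 was not called (22.3 to 51.1 against 17.5 to 40.9). PTPRC had a log2 fold change of -0.34 in batch A and -2.20 in batch B. VWF and CD3E had no read in any library. The part of these markers in the results that follow was not tested.

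LIN28B fell in the senescent cells, DIS3L2 and ARID3A rose, and the other members gave no call. Of the 8 genes 7 passed the filter, and 2 were called higher (against 11.6% of all tested genes) and 1 lower (against 11.8%). LIN28A, IGF2BP1, IGF2BP3 and HMGA2 were tested and not called, and IGF2BP2 was under the filter. The median log2 fold change of the 7 tested members was -0.04, beside 0.01 over all tested genes. RNA came from whole cultures, so fewer expressing cells and less RNA per cell cannot be told apart.

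**Figure D2:**
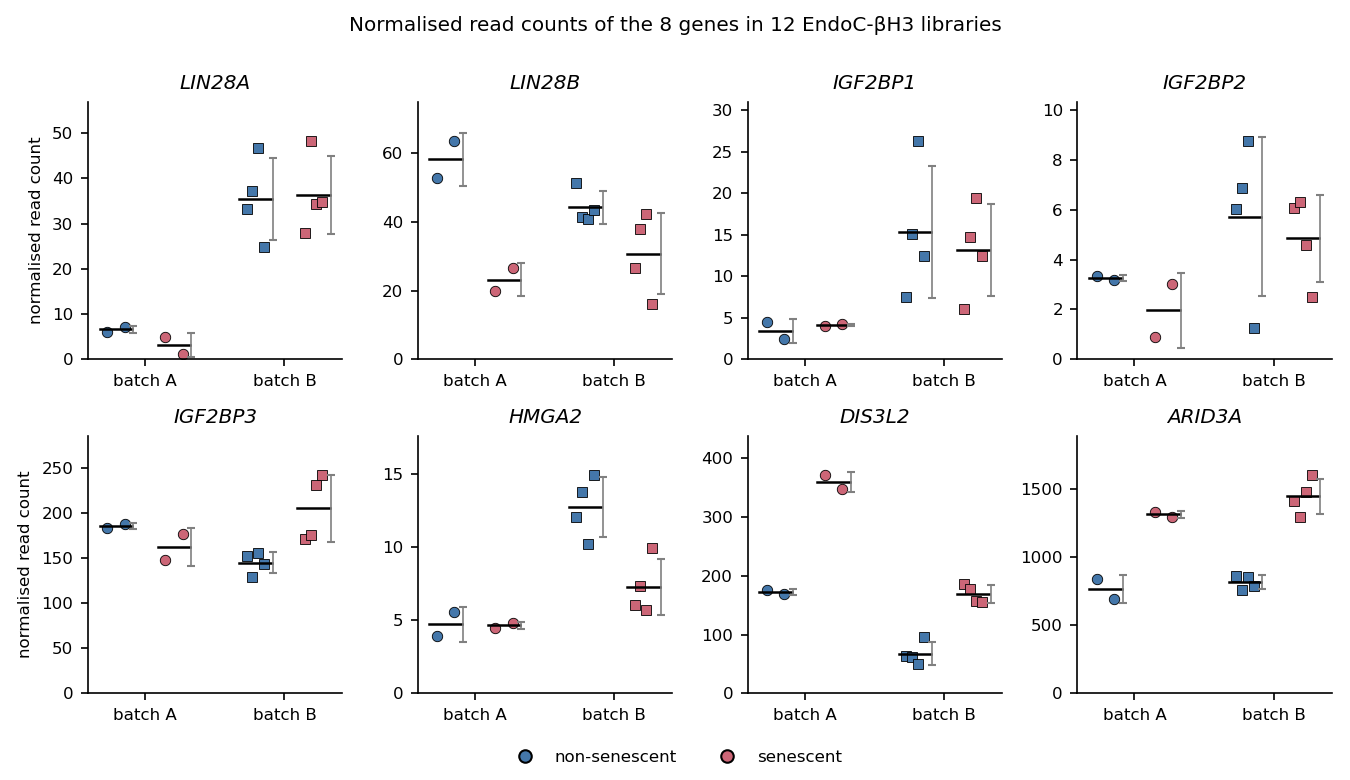
Normalised read counts (y axis, a separate scale for each gene) of the 8 genes in 12 libraries, by batch (x axis) and group (colour), with black bars for means and grey bars for the SD. ARID3A is higher in every senescent sample than in every non-senescent one, LIN28B is lower in batch A and overlaps in batch B, and IGF2BP3 moves in opposite directions in the 2 batches.

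LIN28B, at chr6:104936616-105083332 (+) in GENCODE, had 52.8 and 63.6 normalised reads in the non-senescent samples of batch A and 51.2, 41.3, 40.9 and 43.5 in those of batch B. The senescent samples had 19.8 and 26.6 in batch A and 26.7, 37.8, 42.3 and 16.2 in batch B. Both senescent samples of batch A thus lay below every non-senescent sample, whereas in batch B senescent B3 lay above 2 of the non-senescent samples. The group means were 48.9 ± 8.80 and 28.2 ± 10.1 (SD, n = 6 each). The log2 fold change was -0.83 (SE 0.23, 95% interval -1.32 to -0.33), with an adjusted p of 0.00967 (limma). Within batch A it was -1.30 (adjusted p = 0.00841), and within batch B it was -0.59 (adjusted p = 0.180), which was not a call. The difference between the batches' responses (0.71, SE 0.48) had an adjusted p of 0.529. Depth was low, at 44 to 95 reads per library in batch A and 13 to 37 in batch B. Count tests on the reads gave similar values, -0.83 with edgeR (adjusted p = 0.00777) and -0.82 with DESeq2 (adjusted p = 0.00345).

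LIN28A, at chr1:26410817-26429728 (+), differed more between batches than between groups. In batch A it had 6.11 and 7.15 normalised reads in non-senescent and 4.94 and 1.21 in senescent samples, from 2 to 11 reads. In batch B it had 33.1, 37.2, 46.8 and 24.8 in non-senescent and 27.9, 48.3, 34.3 and 34.9 in senescent samples, from 20 to 46 reads. All libraries of batch B were above all of batch A, although batch A was sequenced more deeply, and the non-senescent mean was 5.35 times higher in batch B. Between the groups the log2 fold change was -0.33 (SE 0.30, 95% interval -0.96 to 0.30), which was not called (adjusted p = 0.417, limma). It was -1.07 within batch A and 0.04 within batch B, and -0.06 without senescent A2, whose 2 reads lie under the floor of 3. LIN28A was 1 of 3 members, with IGF2BP1 and HMGA2, whose batches did not overlap, as was true of 39.3% of all tested genes.

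DIS3L2, the exonuclease that removes uridylated let-7 precursors (chr2:231961245-232344350, +), showed the largest fold change among the 7 tested members. The non-senescent samples had 176 and 168 normalised reads in batch A and 63.2, 61.9, 49.7 and 95.7 in batch B. The senescent samples had 372 and 348 in batch A and 187, 178, 157 and 156 in batch B. Within each batch the groups did not overlap, but the non-senescent samples of batch A reached the level of the senescent samples of batch B. The log2 fold change was 1.25 (SE 0.14, 95% interval 0.96 to 1.55, a 2.38-fold rise), with an adjusted p of 1.77e-06 (limma). It was 1.06 within batch A and 1.35 within batch B, and both passed on their own. The difference between the batches (0.29, SE 0.29) had an adjusted p of 0.707.

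ARID3A, at chr19:925781-975939 (+), was the member with the most reads, 551 to 2969 per library. The non-senescent samples had 838 and 691 normalised reads in batch A and 864, 759, 852 and 788 in batch B. The senescent samples had 1333 and 1295 in batch A and 1408, 1295, 1479 and 1601 in batch B. No senescent sample overlapped a non-senescent one in either batch, and the means were 799 ± 66.2 and 1402 ± 121 (SD, n = 6 each). The log2 fold change was 0.81 (SE 0.07, 95% interval 0.66 to 0.96, a 1.75-fold rise), with an adjusted p of 1.21e-07 (limma). The values within batches, 0.79 in A and 0.82 in B, were close to each other. Groups apart in the same direction in both batches were seen for 2 of the 7 tested members, DIS3L2 and ARID3A, and for 23.8% of all tested genes.

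**Figure D3:**
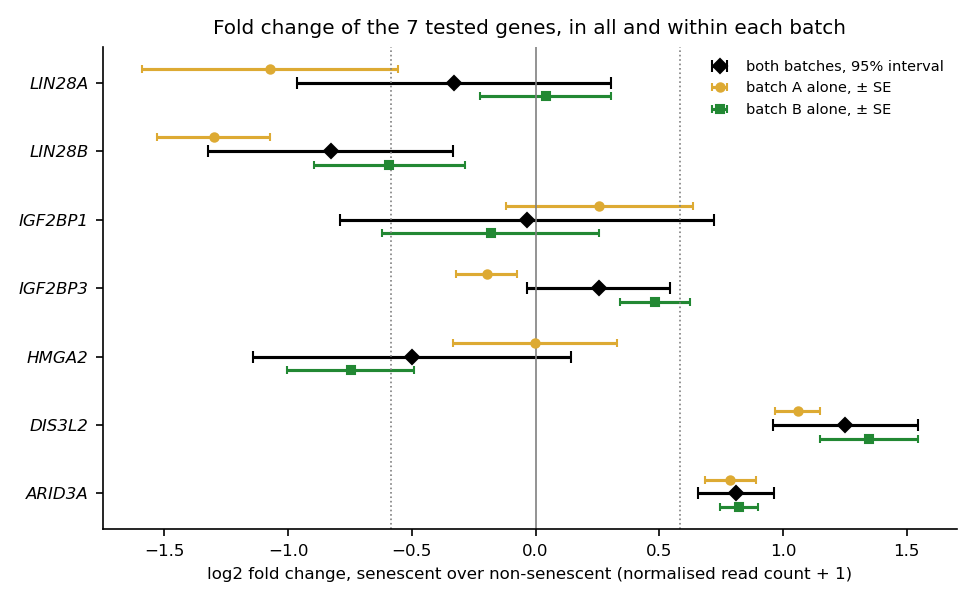
Log2 fold change of senescent over non-senescent cells (x axis) for the 7 tested genes (y axis), with black diamonds and 95% intervals for both batches together, circles for batch A and squares for batch B with their SE, and dotted lines at the 1.5-fold limit. Intervals for LIN28B, DIS3L2 and ARID3A lie off 0, and those for LIN28A, IGF2BP1, IGF2BP3 and HMGA2 cross it.

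The IGF2BP genes encode related RNA-binding proteins with KH domains, also known as readers of m6A, the methylated adenosine of mRNA. IGF2BP3 took most of the family's reads, from 81.5% to 97.1% per library, against 1.23% to 13.8% for IGF2BP1 and 0.590% to 4.62% for IGF2BP2. IGF2BP3 (chr7:23310209-23470491, -) had 183 and 188 normalised reads in the non-senescent and 147 and 177 in the senescent samples of batch A. In batch B it had 152, 129, 155 and 143 in the non-senescent and 171, 175, 231 and 242 in the senescent samples. The groups were thus apart in both batches, but lower with senescence in A and higher in B. The joint log2 fold change was 0.26 (SE 0.14, 95% interval -0.03 to 0.54) and was not called (adjusted p = 0.153, limma). It was -0.20 within batch A (adjusted p = 0.268) and 0.48 within batch B (adjusted p = 0.0304, with a fold under 1.5). Its 3′ UTR overlaps MALSU1 on the opposite strand, and the strand used for counting is not given in the sources used here, so reads of the pair may not be separated.

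IGF2BP1 (chr17:48997385-49056145, +) and IGF2BP2 (chr3:185643130-185825042, -) were near the limit of detection. IGF2BP1 had 4.45 and 2.38 normalised reads in non-senescent and 4.04 and 4.23 in senescent samples of batch A, and ranged from 7.53 to 26.3 and from 6.06 to 19.5 in batch B. Its groups overlapped in both batches. Its log2 fold change of -0.04 (SE 0.36) was not called (adjusted p = 0.951, limma), and the 95% interval of -0.79 to 0.72 includes a 1.5-fold change either way. IGF2BP2 had 1 to 6 reads per library and 50 in all. Its normalised reads ranged from 1.24 to 8.77 in non-senescent and from 0.898 to 6.30 in senescent samples. The difference of mean log2(normalised read count + 1) was -0.25, with a two-sided exact permutation p of 0.557 over 420 arrangements within batches (smallest possible 0.00476). Without single libraries it ran from -0.57 (non-senescent B4 left out, exact permutation p = 0.0524) to -0.07 (senescent A1 left out, exact permutation p = 0.848), and in batch B alone it was -0.07 (exact permutation p = 0.914).

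HMGA2 (chr12:65824460-65966291, +) had 3.89 and 5.56 normalised reads in the non-senescent and 4.49 and 4.83 in the senescent samples of batch A, with 7 to 10 reads per library. In batch B it had 12.05, 13.8, 10.2 and 14.9 in the non-senescent and 6.06, 7.35, 5.72 and 9.96 in the senescent samples, with 5 to 12 reads. The groups overlapped in batch A, and in batch B every senescent sample was below every non-senescent one. The joint log2 fold change was -0.50 (SE 0.30, 95% interval -1.14 to 0.14) and was not called (adjusted p = 0.214, limma). It was -0.75 within batch B (adjusted p = 0.0554), a call on its own, and 0.00 within batch A. The difference between the batches had an adjusted p of 0.624, and it did not pass for any of the 7 tested members (adjusted p 0.167 to 0.940), while it did for 4.21% of all tested genes.

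Of the 19 genes tested in a list for let-7 maturation and turnover, 1 was higher and 3 were lower (against 11.6% and 11.8% of all tested genes), with a median log2 fold change of 0.06. TUT7, listed as ZCCHC6, a partner of LIN28A, rose by 0.94 (SE 0.34, adjusted p = 0.0395, limma). MSI1, an RNA-binding protein that works with LIN28A on let-7, fell by 0.79 (SE 0.18, adjusted p = 0.00215). KHSRP, which promotes let-7 maturation, fell by 0.62 (SE 0.08, adjusted p = 1.83e-05), and DGCR8, the partner of DROSHA, fell by 0.59 (SE 0.15, adjusted p = 0.00478). DICER1 had a log2 fold change of 0.50, under the fold limit, and DROSHA one of -0.10. TUT4, listed as ZCCHC11, had 0.33. Only 2 of 7 transcripts that host let-7 genes were matched, HUWE1 and WDR82, and neither was called.

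Among 23 tested genes known as let-7 targets from other systems, 5 were higher and 6 lower (beside 11.6% and 11.8% of all tested genes), with a median log2 fold change of 0.02. The largest falls were of cell cycle genes, AURKB (-3.11, SE 0.11), RRM2 (-2.52, SE 0.14) and CDC25A (-2.10, SE 0.14), each with an adjusted p of 3.46e-09 or less (limma). IGDCC3, an immunoglobulin-family surface protein, rose by 1.57 (SE 0.15, adjusted p = 3.49e-07). Its rise was 2.28 within batch A and 1.21 within batch B. The other 7 called genes ran from -1.17 to 1.06. Over the transcriptome, the 603 tested genes with an 8-letter match in the longest 3′ UTR had a median log2 fold change of 0.07, with 13.1% called higher and 7.46% lower. The 12660 tested genes with a 3′ UTR had a median of 0.01, with 11.7% and 12.1%. Match and length go together, since the median 3′ UTR was 3526 bases with a match and 1615 over all. For 3′ UTRs of at least 1000 bases, 13.2% were higher and 7.22% lower with an 8-letter match (554 genes), and 12.1% and 11.1% with no match (6858 genes). Length still differed between these sets, with medians of 3843.5 bases with a match and 2391 with none. These shares are descriptions with no test.

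**Figure D4:**
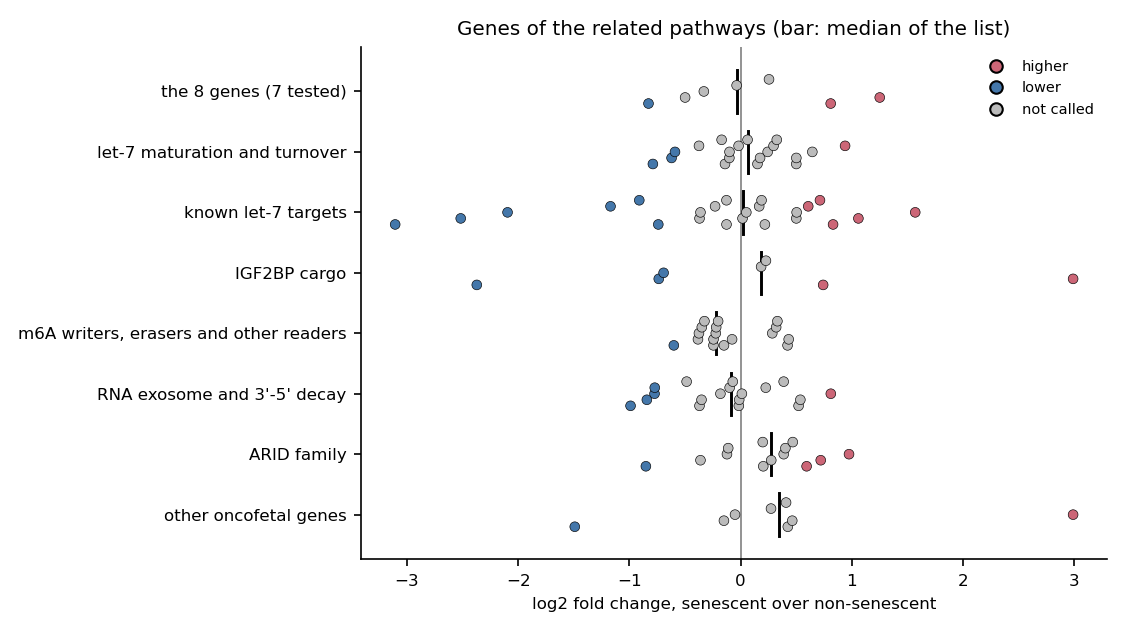
Log2 fold change of senescent over non-senescent cells (x axis) for the tested genes of each list (y axis), coloured by call, with a black bar at each list's median. Each plotted list but the m6A genes, which hold a single lower gene, has calls in both directions, and IGF2 at 2.99 and AURKB at -3.11 lie farthest from 0.

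Of 7 tested mRNAs that IGF2BP proteins are known to bind, 2 were higher and 3 lower (beside 11.6% and 11.8% of all tested genes). IGF2, the growth factor mRNA that gave the family its name, rose by 2.99 (SE 0.07, adjusted p = 2.89e-14, limma) and BTRC, a ubiquitin ligase subunit, by 0.74 (SE 0.15, adjusted p = 0.00103). LDHA, encoding lactate dehydrogenase, fell by 2.37 (SE 0.17, adjusted p = 9.42e-09). CD44, an adhesion receptor, fell by 0.74 (SE 0.27, adjusted p = 0.0367), with -0.26 within batch A and -0.97 within batch B. H19 was not matched in the table, and MYC was under the filter. Of 17 genes for m6A writers, erasers and other readers, METTL3, the catalytic subunit of the writer, fell by 0.60 (SE 0.16, adjusted p = 0.00675) and the other 16 were not called, where 11.8% of all tested genes were lower.

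In a list of 18 other genes of the RNA exosome and RNA decay, all tested, 1 was higher, 4 were lower and 13 were not called (beside 11.6% higher and 11.8% lower of all tested genes), with a median log2 fold change of -0.08. The 4 lower genes were all exosome core subunits. EXOSC9 fell by 0.99 (SE 0.11, adjusted p = 1.58e-06), EXOSC8 by 0.84 (SE 0.12, adjusted p = 2.16e-05), and EXOSC5 by 0.77 (SE 0.20, adjusted p = 0.00485). XRN1, the cytoplasmic 5′ to 3′ exonuclease, rose by 0.81 (SE 0.15, adjusted p = 0.000396, limma), with 0.34 within batch A and 1.05 within batch B. The paralogues of DIS3L2, DIS3 and DIS3L, had log2 fold changes of 0.01 and -0.07 and were not called.

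Of 13 tested relatives of ARID3A with an ARID domain, 3 were higher and 1 lower (beside 11.6% and 11.8% of all tested genes), with a median log2 fold change of 0.28. KDM5A, a histone demethylase, rose by 0.72 (SE 0.13, adjusted p = 0.000343, limma) and ARID4B, a corepressor subunit, by 0.59. ARID5A fell by 0.85 (SE 0.37, adjusted p = 0.0818). Within batches A and B, KDM5A had 0.24 and 0.96, and ARID5A had -0.16 and -1.20. ARID3B, the nearest relative measured, had -0.36 and was not called, and ARID3C had no read. Of 8 other oncofetal genes tested, IGF2 was higher (beside 11.6% of all tested genes), and TPBG, the trophoblast glycoprotein, fell by 1.49 (SE 0.42, adjusted p = 0.00933), beside 11.8%. SALL4, AFP and PEG3 were under the filter, and the other 6, among them GPC3, DLK1 and CD24, were not called.

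The genes whose values followed each member most closely were found by Pearson r over 12 libraries, after centring log2 values within batch. The named genes had the highest r in a search over genes with a mean of at least 20, a limit that 11682 genes passed. So wide a search over 12 libraries can give a high r by chance, and the r that chance would give was not tested. IGF2BP1 and HMGA2 also had few reads per library, and so did LIN28A in batch A (2 to 11 reads). The points share their libraries, and where 2 genes both change with senescence the group difference itself sets much of r. DIS3L2 was followed most closely by RORB (r = 0.989), APOB (0.986) and PCSK2 (0.981), and ARID3A by GALC (0.987), GABARAPL1 (0.987) and FAM92B (0.983). LIN28B was nearest to PDRG1 (0.936), DDX59 (0.929) and IDI1 (0.924), and HMGA2 to CBX2 (0.953), THOC6 (0.948) and ETNK2 (0.942). For IGF2BP3 they were PYGO2 (0.921), ETF1 (0.907) and MDM2 (0.904), for LIN28A they were PSMB9 (0.923), HELZ2 (0.889) and AC211485.1 (0.885), and for IGF2BP1 they were PLLP (0.880), POMZP3 (0.870) and RPUSD4 (0.850). Among the members themselves, DIS3L2 and ARID3A had an r of 0.898, LIN28B and ARID3A one of -0.788, and LIN28A and LIN28B one of 0.374.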

How the data were processed

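The deposited table holds 1 normalised signal value per gene and library, which the authors made by trimming reads with cutadapt, counting them with Salmon 0.13.1 on GRCh38 and dividing by DESeq2 size factors. The annotation, the strand of counting and the use of molecular identifiers are not given in the sources used here. Whole reads were recovered for 100% of values (within 0.01 of a read). The authors' mean, log2 fold change, score and p-value columns in the deposited table were not used.

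Groups and batches came from the sample titles, and no label says that samples came from separate cultures, so p-values measure the spread between samples. Replicate pairs differed by more than sampling noise (chi-square per degree of freedom 4.28 to 8.05). Genes with a mean of at least 5 were fitted with limma 3.58.1 (intensity trend) on log2(value + 1), with batch and group, and with their interaction. The steps were tested on simulated data, which held no batch effect and whose outcome is not given here. edgeR 4.0.16 and DESeq2 1.42.0 on the recovered reads, with scalings, filters, pseudocounts and left-out libraries, were alternatives. IGF2BP2, under the filter, was tested by permutation within batch. The added 1 can shrink the fold change of low genes, but not in every case. LIN28A had -0.33 on this scale, -0.20 with edgeR and -0.18 with DESeq2.

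Named genes were the 8 members, up to 4 called genes per list by size of change (1 called gene of the ARID list is left unnamed, and some uncalled genes were chosen after their values were seen), and the 3 genes most like each member with a mean of at least 20. The members and lists were chosen with earlier results of these data known. Letter matches used GENCODE release 44 and RefSeq. 1 item of the marker lists is not reported here.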

Additional observations from a re-analysis of the deposited data

Results flagged for a closer look

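IGF2BP3 moved in opposite directions in the 2 batches, with every senescent sample below every non-senescent one in batch A (-0.197 on the log2 scale, 2 samples per group) and above in batch B (0.483, 4 per group). A test of the difference between the batches' responses gave 0.68 (SE 0.24) with an unadjusted p of 0.0114 and an adjusted p of 0.167 (limma), which did not pass. That test passed for 4.21% of all tested genes. Of 30 called genes of the lists, picked by size of change and checked by that test, the responses of 3 differed between batches (batch B minus A). They were GCG by 1.59 (adjusted p = 6.81e-06, -2.36 in A and -0.77 in B), SST by 0.89 (adjusted p = 0.000747, -1.24 and -0.35) and IGDCC3 by -1.07 (adjusted p = 0.00737, 2.28 and 1.21), and each kept its direction in both. Of 32 groups of values of the 8 genes checked for a sample far from the others, 0 held one, where chance would give about 1 in 20.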

How the results depend on the processing

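DIS3L2 and ARID3A kept their calls in all 25 alternatives (log2 fold changes 1.06 to 1.35 and 0.70 to 0.85), and LIN28B in 24, losing it in batch B alone (-0.59). Without each library in turn LIN28B ran from -0.97 to -0.68. HMGA2 was called in batch B alone (-0.75). Members that were not called changed sign for LIN28A in batch B alone (0.041), for IGF2BP3 in batch A alone (-0.20) and for IGF2BP1 in batch A alone (0.26) and without single libraries (-0.19 to 0.17). Within the same sign, LIN28A (-0.33) was -0.12 with a pseudocount of 8, -0.20 with edgeR and -0.18 with DESeq2, HMGA2 (-0.50) was -0.30 with a pseudocount of 8, IGF2BP3 (0.26) was 0.15 with libraries scaled to the same total, and IGF2BP1 (-0.04) was -0.13 with that scaling, and none of these was a call. With no batch term 2143 of all tested genes were called, against 3237. Scaling every library to the same total shifted the median log2 fold change of all genes from 0.01 to -0.09, and 37.0% of calls were then higher, against 49.6%, with the members' calls unchanged. The replicate names were tried as a replicate block, which gave 3211 calls and changed no member's call. Samples with the same name did not deviate together (r -0.05 to 0.02), and none correlated best with its own name. The count of genes whose response to senescence differed between batches ran from 463 to 743 over the alternatives run, against 583. IGF2BP1 and HMGA2 had no value with a mean of at least 20. For IGF2BP2, TMM scaling, batch A alone, the block and the count tests were not run. The cause of these changes was not tested. Depth limits LIN28A, IGF2BP1, IGF2BP2 and HMGA2, with means under 30.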
